A study of Mus musculus with 18 samples.

Results

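The genes described here encode 2 kinds of microtubule regulator: the structural microtubule-associated proteins Map1a, Map1b, Map2, Map4 and Mapt (tau), and the stathmins Stmn1, Stmn2, Stmn3 and Stmn4. They were taken by symbol from the deposited expression table, and all 9 were found among its 17198 genes. RNA had been sequenced from mouse neurons of the dorsal root ganglia (DRG), where the cell bodies of sensory nerves lie beside the spinal cord, cultured for 12, 24 or 48 h in culture. Wild-type (WT) cultures were compared with cultures of mice heterozygous for the tm1a allele of Dynlrb1 (HET). The protein Dynlrb1 is a roadblock light chain of cytoplasmic dynein, which moves along these same microtubules in the retrograde direction. The tm1a design inserts a cassette into a gene to block its expression, and HET neurons keep 1 WT copy. Each of the 6 groups had 3 biological replicates, 18 cultures in all, with replicate numbers 1, 2 and 5 at the first pair of times and 1, 2 and 3 at 48 h. Strain, age and whether ganglia of several animals were pooled are not given in the sources used here.

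Microtubules are hollow polymers of tubulin that form the tracks of axons and dendrites. Structural microtubule-associated proteins bind along the polymer and stabilise, bundle or space it, and they differ in where they sit: tau is concentrated in axons and MAP2 in the cell body and dendrites, while MAP4 is found in many cell types. MAP1A and MAP1B are large relatives that are cut into heavy and light chains, and MAP1B is known for its abundance in growing axons. Stathmins do the opposite work, binding free tubulin pairs and favouring disassembly. Stathmin 1 is cytosolic, whereas stathmins 2, 3 and 4 are held on Golgi-derived vesicles and growth cones, and Stmn2 (SCG10) is a known marker of growing and injured sensory axons.

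Values are the authors' normalized counts, and their depth is unknown because all columns had been adjusted. P-values measure the spread left between these cultures after that adjustment. The adjusted values lack 2 directions of variation between cultures. The main fit did not allow for this, so its p-values may be too small. Each gene is measured in RNA of a whole culture, so fewer cells of a type and less RNA per cell cannot be told apart. Dynlrb1 was lower in each HET culture (2716 to 4087 normalized counts) than in each WT culture (5229 to 6674). Averaged over times the difference was -0.83 on the log2 scale (SE 0.071, limma with Benjamini-Hochberg adjustment over all genes, adjusted p 2.85e-05). The 10 neuron markers were present in all groups, with a summed FPKM (a level per transcript length) of 5013 to 7427 per culture. Glial, fibroblast, macrophage and endothelial markers were also present, so other cells were in the cultures. HET 48 h replicate 3 stood apart: across genes with a mean of at least 100 normalized counts, its deviation from the mean of all cultures correlated at r = -0.41 with that of its own group and at r = 0.52 with that of HET at 12 h. It was the 1 culture of 18 with a negative r to its own group. Several other cultures correlated better with the other genotype at the same time than with their own group. HET 48 h replicates 1 and 2 had r = 0.44 and 0.50 to their own group and 0.73 and 0.75 to WT at 48 h. Each own-group mean left out the culture compared, so it rested on fewer cultures than the means of other groups. For HET 48 h replicates 1 and 2 that mean included HET 48 h replicate 3. WT 24 h replicate 5 had r = 0.18 to its own group and 0.52 to HET at 24 h. Without HET 48 h replicate 3 the averaged difference of Dynlrb1 was -0.82 (limma adjusted p 0.000108). Tests that use HET 48 h replicate 3 are given with and without it. Leaving that culture out raised the share of all genes called in HET from 14.2% to 28.4% for 12 to 48 h and from 2.49% to 14.9% for 24 to 48 h.

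The members of each family share coding sequence, so the stretch in which the members together come closest to 1 reference member is shown, to let a reader see how alike they are. Each line gives 60 coding bases from GENCODE M21 on GRCm38, the assembly also called mm10 that the submitters' processing notes name, read 5′ to 3′ on the strand of the gene. Capitals mark bases that differ from the family's reference member, which has none. For the stathmins the reference was Stmn2.
Stmn1: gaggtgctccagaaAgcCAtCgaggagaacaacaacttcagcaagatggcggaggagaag
Stmn2: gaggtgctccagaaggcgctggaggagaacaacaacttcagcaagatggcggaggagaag
Stmn3: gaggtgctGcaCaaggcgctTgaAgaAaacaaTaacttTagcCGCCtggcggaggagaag
Stmn4: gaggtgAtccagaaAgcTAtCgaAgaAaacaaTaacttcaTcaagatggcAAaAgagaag
These lie in exon 4 of Stmn1 (chr4:134472858-134472917, plus strand), exon 4 of Stmn2 (chr3:8554846-8554905, plus strand), exon 4 of Stmn3 (chr2:181307294-181307353, minus strand) and exon 6 of Stmn4 (chr14:66357900-66357959, plus strand). Stmn1 differed from Stmn2 at 4 of the 60 bases, Stmn3 at 11 and Stmn4 at 12. For the MAP1 pair the reference was Map1b.
Map1a: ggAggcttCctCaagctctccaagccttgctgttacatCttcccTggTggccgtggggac
Map1b: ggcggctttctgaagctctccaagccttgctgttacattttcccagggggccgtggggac
Both stretches lie in exon 5, of Map1a (chr2:121299506-121299565, plus strand) and of Map1b (chr13:99435399-99435458, minus strand), and 6 bases differed. For tau and its relatives the reference was Map2.
Map2: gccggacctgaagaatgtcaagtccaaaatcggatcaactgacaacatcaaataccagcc
Map4: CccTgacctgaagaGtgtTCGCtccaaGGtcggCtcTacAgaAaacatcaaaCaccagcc
Mapt: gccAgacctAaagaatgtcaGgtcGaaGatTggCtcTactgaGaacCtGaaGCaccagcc
These lie in exon 12 of Map2 (chr1:66425456-66425515, plus strand), exon 13 of Map4 (chr9:110068913-110068972, plus strand) and exon 9 of Mapt (chr11:104310462-104310521, plus strand), with 14 differing bases in Map4 and 13 in Mapt. Single pairs came closer elsewhere in their coding sequences: the best match over 60 bases was 53 for Stmn2 and Stmn3, 51 for Stmn2 and Stmn4, 47 for Map2 and Map4 and 48 for Map2 and Mapt. Over all annotated transcripts of each gene, 6 members shared 0 stretches of 50 bases with transcripts of any other gene. Stmn1 shared 369 of 1956 (18.9%), with Gm11223 and Gm23634, and all 369 lay among the 1011 stretches of its 1060-base transcript, the length that the deposited FPKM implies. Map4 shared 107 of 15556 stretches and Stmn2 49 of 5601. How the authors treated such reads is not given in the sources used here, so the level of Stmn1 is uncertain.

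Per transcript length, Map1b and Stmn2 were the most abundant of the 9 in RNA. Their mean FPKM over the 18 cultures was 787 and 771, and only 21 and 22 of the 17198 genes had a higher mean. Map1b was the higher of the pair in 10 of 18 cultures, and their ranges overlapped within each of the 6 groups, so their order is not separable from the spread. Stmn3, a neuronal stathmin, followed at 533 FPKM and did not overlap Stmn2 above it or Map1a below it in any of the 6 groups. Map1a (132 FPKM) and Map4 (125 FPKM) overlapped in 5 of 6 groups. Stmn1 (92.4 FPKM), Mapt (82.8 FPKM) and Stmn4 (68.4 FPKM) came next by mean, but their order changed between groups. Stmn1 lay wholly above Mapt at 48 h in WT and in HET. It lay wholly below Mapt in WT at 12 h (79.6 to 87.2 against 91.2 to 114.9 FPKM). Mapt lay wholly above Stmn4 at 12 h in WT and in HET. It lay wholly below Stmn4 in WT at 48 h (47.2 to 55.8 against 58.9 to 82.7 FPKM). In the remaining groups these neighbours overlapped. Map2, the dendritic protein gene, was lowest at 24.2 FPKM and lay below Stmn4 without overlap in all 6 groups. Its FPKM still exceeded that of 80.3% of the genes in the table.

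**Figure D1:**
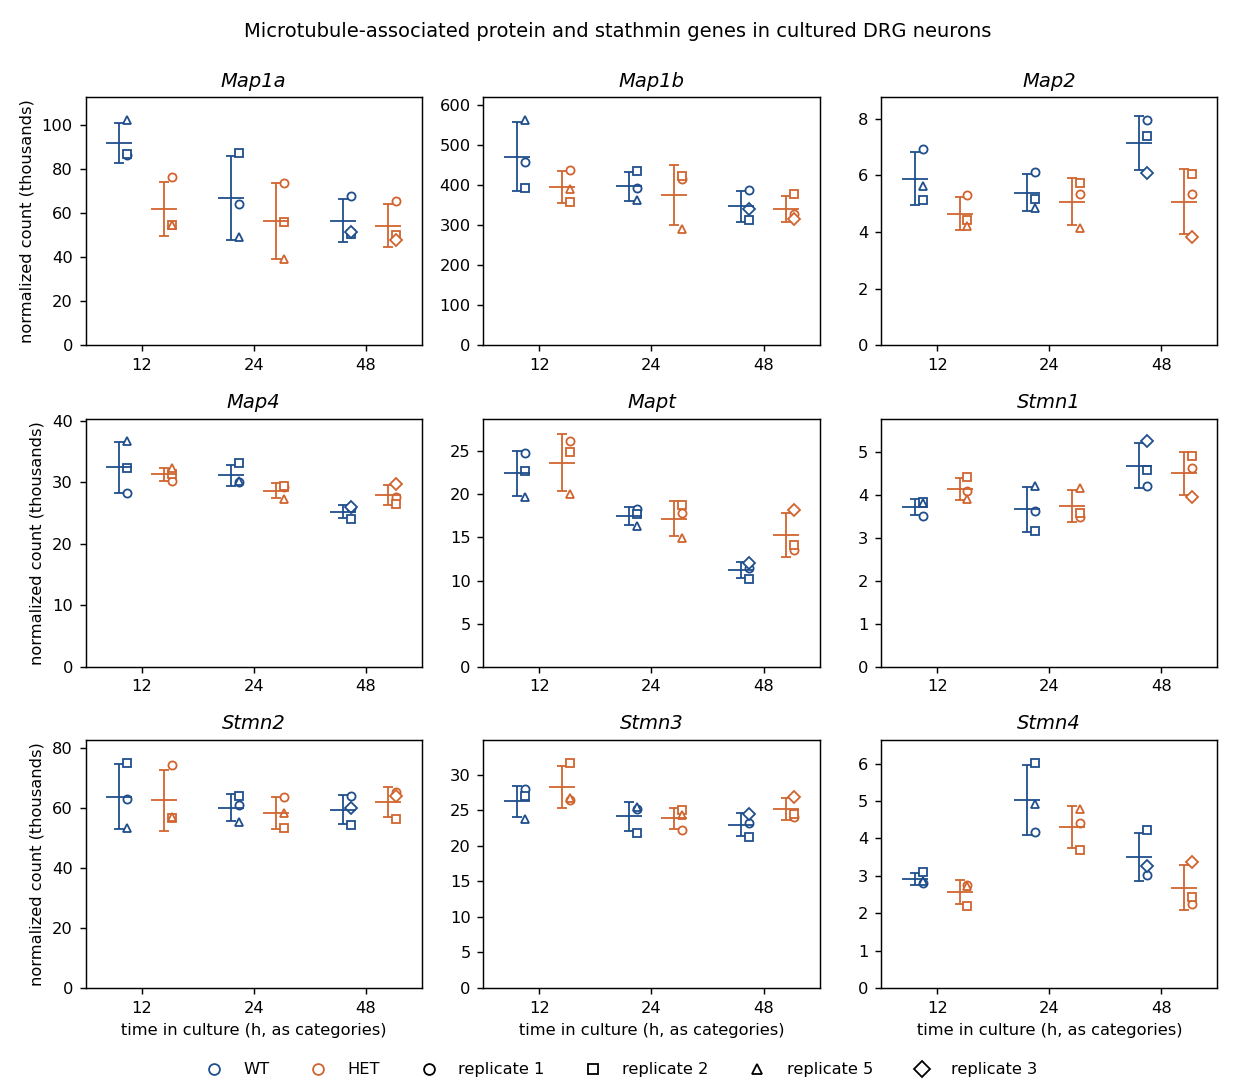
Normalized counts (linear axes from 0 with the multiplier given on the axis, a scale of its own per gene) of the 9 genes against time in culture, with 1 open symbol per culture, WT in blue and HET in orange; long horizontal marks are group means and bars are SD (n = 3). Mapt steps down with time, Stmn4 peaks at 24 h in both genotypes, Stmn2 stays between 53086 and 74974, and HET 48 h replicate 3 (orange diamond) is the highest Mapt and the lowest Map2 value of its group.

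More of the 9 genes passed the test between times in culture than between genotypes. Between 12 and 48 h in WT, 5 of 9 passed the threshold of an adjusted p of 0.05 (Mapt, Map1a, Map1b and Map4 fell and Stmn1 rose), beside 47.1% of all genes tested (30.0% higher and 17.1% lower). The share of members was thus close to that of the table. Their median log2 fold change was -0.19, against 0.11 over all genes. The all-gene median of 0.11 came with the authors' normalization and was 0.01 on their plain adjusted columns (columns without that last scaling), so changes relative to it are given too. In HET the same interval gave 1 of 9 (Mapt, lower), beside 14.2% of all genes, and without HET 48 h replicate 3 also 1 of 9, beside 28.4%.

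Mapt, which encodes tau, changed most of the members from 12 to 48 h in both genotypes. Its normalized counts in WT replicates 1, 2 and 5 at 12 h were 24834, 22768 and 19716. At 24 h they were 18343, 17702 and 16296. At 48 h replicates 1, 2 and 3 had 11403, 10204 and 12051. The 3 times did not overlap, and each step was downward. From 12 to 48 h the log2 fold change in WT was -0.997 (SE 0.13, limma adjusted p 4.44e-05), or -1.11 relative to the all-gene median. The larger step lay between 24 and 48 h, at -0.64 on the log2 scale (SE 0.13, limma adjusted p 0.00406). Between 12 and 24 h it was -0.36 (SE 0.13) and did not pass (limma adjusted p 0.120). Of the 10 neuron markers, 4 rose and 3 fell from 12 to 48 h in WT, and their summed FPKM was 5228 to 6415 per culture at 12 h and 5757 to 6224 at 48 h.

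In HET, Mapt had 26168, 24941 and 19994 normalized counts at 12 h and 17815, 18807 and 14952 at 24 h. At 48 h it had 13567, 14142 and 18217, the last in replicate 3. The groups at 12 and 24 h did not overlap, while those at 24 and 48 h did. The log2 fold change from 12 to 24 h was -0.46 (SE 0.13, limma adjusted p 0.0215), beside 18.9% of all genes called in that comparison, where 2 of 9 members passed. It did not pass without HET 12 h replicate 1 (-0.38, limma adjusted p 0.0814), HET 12 h replicate 2 (-0.42, 0.0966) or HET 24 h replicate 5 (-0.36, 0.106). From 12 to 48 h it was -0.63 (SE 0.13, limma adjusted p 0.0130), or -0.74 relative to the all-gene median. Without HET 48 h replicate 3 it was -0.77 (limma adjusted p 0.00067). It did not pass without HET 12 h replicate 2 (-0.59, 0.0699), HET 48 h replicate 1 (-0.55, 0.0837) or HET 48 h replicate 2 (-0.58, 0.0670), nor in a fit to these 6 cultures alone (0.0983).

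Map4, the microtubule-associated protein gene of many cell types, had 28281, 32297 and 36639 normalized counts in WT at 12 h and 29968, 33044 and 30266 at 24 h. At 48 h it had 25808, 23952 and 25910, below every earlier WT culture. It fell by 0.35 on the log2 scale from 12 to 48 h (SE 0.088, limma adjusted p 0.00376; -0.47 relative to the all-gene median). From 24 to 48 h it fell by 0.30 (SE 0.088, limma adjusted p 0.0196), a comparison in which 4 of 9 members passed (1 higher, 3 lower) beside 27.7% of all genes (17.4% higher, 10.3% lower). That second call was lost without WT 24 h replicate 2 (-0.26, limma adjusted p 0.0876) or WT 48 h replicate 2 (-0.27, 0.0857), and on quantile-normalized values (-0.23, 0.0593). In HET, Map4 had 30261, 31315 and 32344 normalized counts at 12 h, 29261, 29372 and 27263 at 24 h, and 27573, 26390 and 29735 at 48 h. Both later groups lay below the 12 h group without overlap, and no HET change of Map4 passed. Its log2 fold changes in HET ran from -0.17 to -0.04, and without HET 48 h replicate 3 those to 48 h were -0.21 and -0.09, neither of which passed.

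The MAP1 genes fell together in WT. Map1a had 86266, 86710 and 102226 normalized counts in WT at 12 h and 64284, 87004 and 49057 at 24 h. At 48 h it had 67707, 50597 and 51510, so the 12 and 48 h groups did not overlap. Its log2 fold change from 12 to 48 h was -0.71 (SE 0.22, limma adjusted p 0.0163; -0.82 relative to the all-gene median). The call was lost without WT 12 h replicate 5 (-0.62, limma adjusted p 0.0602), WT 48 h replicate 2 (-0.63, 0.0658) or WT 48 h replicate 3 (-0.64, 0.0511). Map1b had 457719, 391703 and 562504 normalized counts in WT at 12 h, 392036, 434188 and 363758 at 24 h, and 388260, 311861 and 340188 at 48 h. Its lowest 12 h culture lay just above its highest 48 h culture. Its log2 fold change from 12 to 48 h was -0.43 (SE 0.16, limma adjusted p 0.0340; -0.54 relative to the all-gene median). That call was lost without WT 12 h replicate 1 (-0.44, limma adjusted p 0.0617), WT 12 h replicate 5 (-0.29, 0.162), WT 48 h replicate 2 (-0.36, 0.131) or WT 48 h replicate 3 (-0.42, 0.0724), and in a fit to these 6 cultures alone (0.0658).

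In HET, Map1a had lower values at 12 h than in WT: 76118, 54773 and 54462 normalized counts at 12 h, then 73690, 56138 and 39131 at 24 h and 65378, 49946 and 47607 at 48 h. Replicate 1 was the highest HET culture at each time. Map1b had 436915, 357938 and 391089 in HET at 12 h, 415186, 421677 and 289108 at 24 h, and 327178, 377334 and 314897 at 48 h. The HET groups of both genes overlapped between all times, with log2 fold changes from -0.22 to -0.02, none of which passed. Without HET 48 h replicate 3 those to 48 h ran from -0.17 to 0.07 and none passed. The HET change of Map1a was not separable from the WT fall: the difference of the 12 to 48 h changes was 0.52 (SE 0.32, 95% interval -0.15 to 1.19, limma adjusted p 0.592), or 0.61 without HET 48 h replicate 3 (0.772).

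Map2 had its highest WT mean at 48 h, but its changes did not pass in the fit to all 18 cultures. Its normalized counts in WT were 6919, 5128 and 5623 at 12 h, 6115, 5174 and 4858 at 24 h, and 7959, 7406 and 6070 at 48 h. Only replicate 3 of the 48 h cultures lay within the range of the earlier ones. The log2 fold change from 24 to 48 h was 0.41 (SE 0.17) and did not pass (limma adjusted p 0.0832); without WT 48 h replicate 3 it was 0.52 (limma adjusted p 0.0495), and a fit to the 6 WT cultures of 24 and 48 h alone also passed (0.0307). With the missing directions, the 2 directions of variation between cultures that the deposited values lack, as covariates it was 0.57 (limma adjusted p 0.0441). In HET, Map2 had 5317, 4437 and 4208 normalized counts at 12 h, 5334, 5734 and 4136 at 24 h, and 5328, 6067 and 3834 at 48 h. These groups overlapped at all times, and no change passed with or without replicate 3 at 48 h (0.18 from 24 h and 0.30 from 12 h without it).

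**Figure D2:**
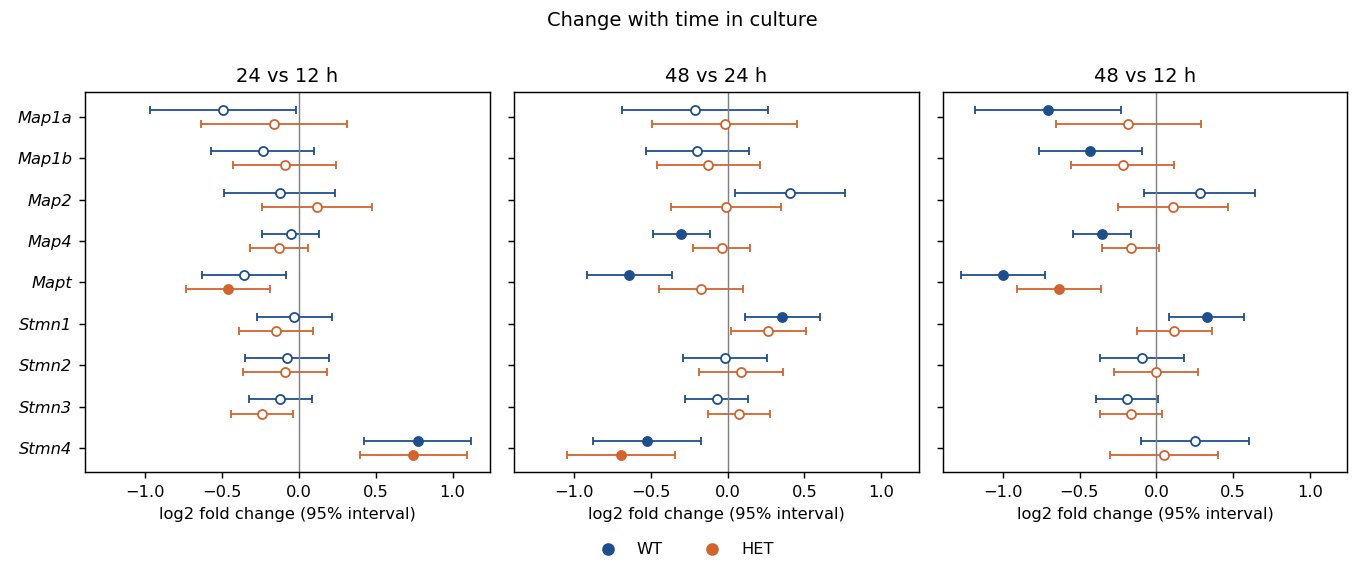
Log2 fold change between times (x axis) of the 9 genes, WT in blue and HET in orange, with 95% intervals from limma; filled points passed an adjusted p of 0.05. Stmn4 is filled in both genotypes from 12 to 24 h and from 24 to 48 h, in opposite directions, and Mapt is the lowest point from 12 to 48 h in WT (-0.997) and in HET (-0.63).

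Among the stathmins, Stmn4 rose and then fell. Its normalized counts in WT were 2812, 3089 and 2849 at 12 h. They were 4166, 6025 and 4924 at 24 h and 3010, 4228 and 3271 at 48 h. All 24 h cultures lay above all 12 h cultures. Stmn4 was the only member of 9 called from 12 to 24 h in WT (log2 fold change 0.77, SE 0.17, limma adjusted p 0.0247), beside 3.62% of all genes. Leaving out any 1 of the 6 WT cultures of 12 and 24 h ended the call, with log2 fold changes of 0.64 to 0.90 and limma adjusted p from 0.0570 to 0.0951. Between 24 and 48 h in WT Stmn4 fell by 0.52 (SE 0.17, limma adjusted p 0.0277), a call lost without WT 24 h replicate 2 (-0.39, limma adjusted p 0.14), WT 24 h replicate 5 (-0.53, 0.0530), WT 48 h replicate 1 (-0.42, 0.113) or WT 48 h replicate 3 (-0.48, 0.0707). With the missing directions as covariates the rise was 1.08 (limma adjusted p 0.000423) and the fall -0.86 (0.000561).

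The same course was seen for Stmn4 in HET. Its normalized counts were 2759, 2197 and 2736 at 12 h, 4424, 3691 and 4780 at 24 h, and 2240, 2446 and 3359 at 48 h. The 24 h cultures lay above both other HET groups without overlap. From 12 to 24 h it rose by 0.74 on the log2 scale (SE 0.17, limma adjusted p 0.00637), a call that held with each of the 6 cultures left out in turn. From 24 to 48 h it was -0.69 (SE 0.17, limma adjusted p 0.0382), the 1 member called of 9 beside 2.49% of all genes. Without HET 48 h replicate 3 it was -0.87 (limma adjusted p 0.00194, beside 14.9% of all genes), whereas without any 1 of the other 5 cultures it did not pass (-0.80 to -0.58, limma adjusted p from 0.0510 to 0.287), nor in a fit to these 6 cultures alone (0.191). From 12 to 48 h no change of Stmn4 passed in either genotype, nor in HET without replicate 3 (-0.12).

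Stmn1, the cytosolic stathmin also made by dividing cells, had 3500, 3838 and 3806 normalized counts in WT at 12 h and 3612, 3164 and 4206 at 24 h. At 48 h it had 4207, 4575 and 5239, above every earlier WT culture. It rose by 0.33 on the log2 scale from 12 to 48 h (SE 0.11, limma adjusted p 0.0275; 0.21 relative to the all-gene median). The rise from 24 to 48 h was 0.36 (SE 0.11, limma adjusted p 0.0300). On the plain adjusted columns neither passed (0.22, limma adjusted p 0.0935, beside 46.2% of all genes, and 0.29, 0.0507, beside 27.4%). The 12 to 48 h call was also lost without WT 12 h replicate 1 (0.28, 0.0885), WT 48 h replicate 2 (0.34, 0.0578) or WT 48 h replicate 3 (0.24, 0.125). The 24 to 48 h call was lost without WT 24 h replicate 1 (0.35, 0.0739), WT 24 h replicate 2 (0.26, 0.150), WT 48 h replicate 2 (0.37, 0.0732) or WT 48 h replicate 3 (0.27, 0.115).

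Genes of dividing cells moved with the WT rise of Stmn1. All 8 cell cycle genes listed, among them Mki67 and Top2a, rose from 12 to 48 h in WT. Their summed FPKM went from 28.9 to 35.0 per culture to 54.0 to 67.9. The 6 fibroblast markers went from 39.9 to 88.2 summed FPKM to 107 to 154, with 4 called higher. The 8 Schwann and satellite glia markers went from 863 to 1160 to 527 to 556, with 4 called lower and 1 higher. Of 5 endothelial markers 3 were called lower, and of 6 macrophage markers 1 was called higher and 1 lower. The part of these cells in the change of Stmn1, or of the broadly expressed Map4, was not tested. In HET, Stmn1 had 4087, 4407 and 3897 normalized counts at 12 h, 3476, 3567 and 4164 at 24 h, and 4626, 4907 and 3944 at 48 h. These groups overlapped and no change passed, nor without HET 48 h replicate 3 (0.36 from 24 to 48 h, limma adjusted p 0.0564). Of the 8 cell cycle genes 7 were called higher from 12 to 48 h in HET, and 8 without that culture.

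For Stmn2 and Stmn3, the 2 most abundant stathmins, no change passed in either genotype. Stmn2 had 62897, 74974 and 53273 normalized counts in WT at 12 h, 61044, 63866 and 55181 at 24 h, and 63805, 54220 and 59833 at 48 h. In HET it had 74091, 56526 and 56802 at 12 h, 63659, 53086 and 58328 at 24 h, and 65328, 56305 and 63983 at 48 h. All groups overlapped, and the range within each 12 h group was wider than any difference between group means. The log2 fold change from 12 to 48 h in WT was -0.09 (SE 0.13, 95% interval -0.37 to 0.18, limma adjusted p 0.579). Stmn3 had 27938, 27006 and 23798 normalized counts in WT at 12 h, 25148, 21850 and 25460 at 24 h, and 23205, 21252 and 24469 at 48 h. In HET it had 26394, 31695 and 26684 at 12 h, 22252, 25100 and 24336 at 24 h, and 24091, 24491 and 26887 at 48 h. Its HET cultures at 24 h lay below those at 12 h without overlap, a log2 fold change of -0.24 (SE 0.096) that did not pass (limma adjusted p 0.0930). On the plain adjusted columns it passed (-0.30, limma adjusted p 0.0337, beside 18.4% of all genes), as did the change from 12 to 48 h in WT (-0.30, 0.0140). Without HET 48 h replicate 3 the HET changes of Stmn2 and Stmn3 to 48 h ran from -0.21 to 0.06 and none passed.

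Groups that do not overlap were about as common among the members as in the table for most time comparisons. From 12 to 48 h in WT it was 5 of 9 members, beside 55.3% of all genes. For 24 to 48 h in WT it was 3 of 9, beside 46.0%, and from 12 to 24 h in WT 2 of 9, beside 26.9%. In HET it was 4 of 9 from 12 to 24 h, beside 38.4%, 1 of 9 from 24 to 48 h, beside 18.3%, and 2 of 9 from 12 to 48 h, beside 29.7%. In the authors' deposited table, whose adjusted p-values come from their own edgeR run, the same 5 members were under 0.05 from 12 to 48 h in WT, beside 45.4% of all genes.

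Between genotypes, no member passed at any single time. In the same fit Dynlrb1, though lower in every HET culture, passed at 24 h (-0.86, limma adjusted p 0.0390). It did not pass at 12 h (-0.78, 0.0655) or 48 h (-0.84, 0.0501, and 0.222 without HET 48 h replicate 3). A missing call at a single time thus does not show that a gene was unchanged. At 12 h limma called 0 of 9 members, beside 0.00581% of all genes, and 1 member had an unadjusted p under 0.05. At 24 h it called 0 of 9, beside 0.00581% of all genes, and 0 had an unadjusted p under 0.05. At 48 h it called 0 of 9, beside 0% of all genes, and 3 had an unadjusted p under 0.05. Averaged over times it called 0 of 9, beside 0.0174% of all genes, with 4 at an unadjusted p under 0.05. At 12 h the groups of 3 members did not overlap (Map1a and Stmn4 lower in HET, Stmn1 higher), beside 15.1% of all genes. At 24 h it was 1 member (Map4, lower), beside 5.60%, and at 48 h 3 members (Mapt and Map4 higher, Map2 lower), beside 24.0%.

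Mapt and Map2 showed the genotype differences at 48 h that depended on the fit. Each HET culture had more Mapt than each WT culture (13567 to 18217 against 10204 to 12051 normalized counts), a log2 fold change of 0.44 (SE 0.13, 95% interval 0.16 to 0.71, limma adjusted p 0.0772). Each HET culture had less Map2 than each WT culture (3834 to 6067 against 6070 to 7959), a log2 fold change of -0.51 (SE 0.17, 95% interval -0.87 to -0.15, limma adjusted p 0.101). At 48 h same-numbered WT and HET cultures deviated together in all 3 pairs. With the replicate number as a block, Mapt (limma adjusted p 0.00535) and Map2 (0.00656) passed, beside 12.3% of all genes. In the authors' deposited table Mapt was under 0.05 (log2 fold change 0.45, adjusted p 0.0400) and Map2 was not (-0.49, 0.0635), beside 5.98% of all genes.

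HET 48 h replicate 3 held both the highest Mapt and the lowest Map2 value of its group. Without it the log2 fold change of Mapt was 0.31 (limma adjusted p 0.365) and that of Map2 -0.32 (0.471). With the block and without it, a fit chosen after seeing the data, Mapt passed narrowly (0.36, limma adjusted p 0.0469) and Map2 did not (-0.43, 0.0562), beside 3.86% of all genes. Without HET 48 h replicate 1, Mapt passed in the fit without a block (0.52, limma adjusted p 0.0499). The direction of both differences held in all of these fits. Markers of other cells also differed between the 48 h groups, though 0 passed. The 8 cell cycle genes all had lower means in HET (median log2 fold change -0.85, 5 at an unadjusted p under 0.05), and without HET 48 h replicate 3 the median was -0.41, with 1 at that p. The macrophage marker sum was 22.1 to 33.3 FPKM in HET and 37.4 to 75.3 FPKM in WT, without overlap. Only 1 of the 6 macrophage markers had an unadjusted p under 0.05, with or without that culture. Over all cultures Cd68 had 7.82 to 68.8 FPKM, and the other macrophage markers reached at most 3.83. Of the 8 glial markers 6 had higher means in HET. At an unadjusted p under 0.05 were 3 glial markers (1 without HET 48 h replicate 3) and 3 of the 10 neuron markers (2 without it). So were 2 of the 6 fibroblast markers (1 without that culture) and 1 of the 5 endothelial markers (0 without it). Higher means in HET were seen for 2 of the 6 fibroblast and 4 of the 5 endothelial markers. The part of any of these cell types in the differences of Mapt and Map2 was not tested. Replicates 1 and 2 alone had 13567 and 14142 normalized counts of Mapt in HET, both above the 3 WT cultures.

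**Figure D3:**
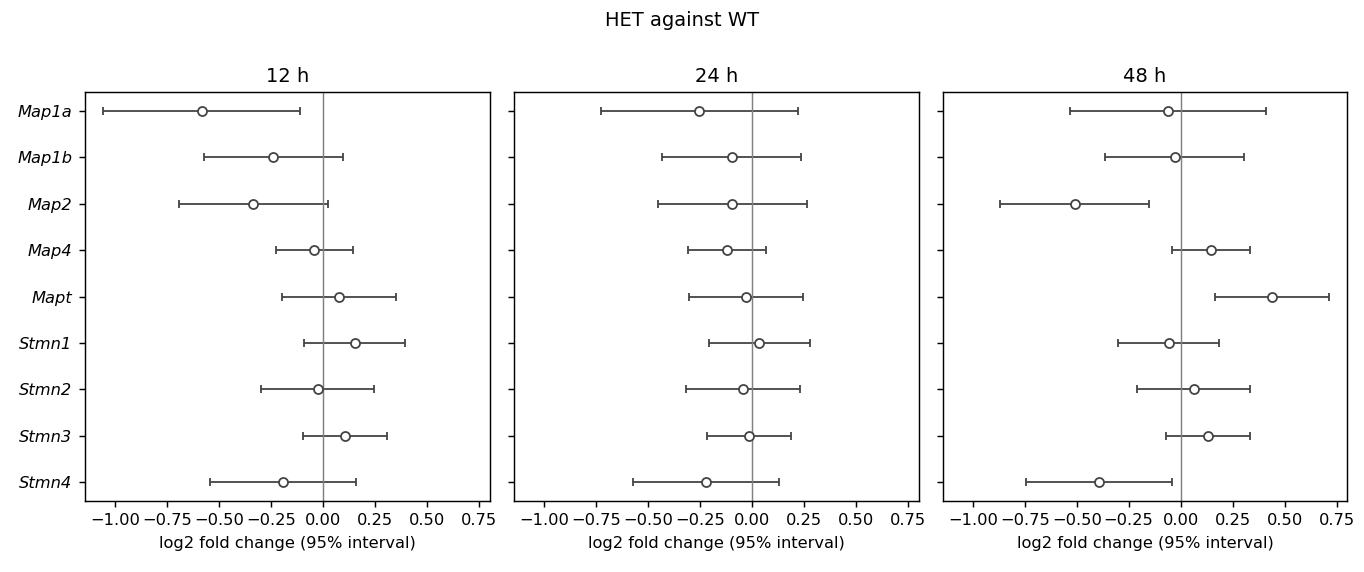
Log2 fold change of HET against WT (x axis) for the 9 genes at each time, with 95% intervals from limma; all points are open because no member passed an adjusted p of 0.05. The 48 h points of Mapt (0.44) and Map2 (-0.51) lie on opposite sides of 0, and the 24 h intervals of all 9 genes include 0.

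Map1a differed most at 12 h. Its HET cultures had 54462 to 76118 normalized counts and its WT cultures 86266 to 102226, a log2 fold change of -0.58 (SE 0.22, 95% interval -1.06 to -0.11, limma adjusted p 0.577). With the block it was 0.130, and 0 of 9 members passed beside 0.0988% of all genes. At 24 and 48 h the groups of Map1a overlapped. Map2 at 12 h was -0.34 (SE 0.17, limma adjusted p 0.594), with overlapping groups. Averaged over times, the log2 fold change was -0.30 for Map1a (limma adjusted p 0.333), -0.31 for Map2 (0.310), -0.27 for Stmn4 (0.313) and 0.16 for Mapt (0.362). With HET 48 h replicate 3 left out, these averages were -0.27 for Map1a (limma adjusted p 0.519), -0.25 for Map2 (0.471), -0.33 for Stmn4 (0.471) and 0.12 for Mapt (0.566). With the block, Map2 passed in this average (limma adjusted p 0.0157), the 1 member beside 3.22% of all genes, and also without HET 48 h replicate 3 (-0.29, 0.0375), beside 1.74%. Same-numbered cultures deviated together at 12 and 48 h but not in every pair at 24 h.

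Stmn4 was lower in HET at 48 h by 0.39 on the log2 scale (SE 0.17, 95% interval -0.74 to -0.04) without passing (limma adjusted p 0.181, and 0.142 with the block). HET 48 h replicate 3, at 3359 normalized counts, was the only culture of its group within the WT range, and without it the log2 fold change was -0.57 (limma adjusted p 0.251). For Stmn2, the marker of growing sensory axons, the average over times was -0.0022 on the log2 scale (SE 0.075, 95% interval -0.16 to 0.16, limma adjusted p 0.993), and 0.012 on the plain adjusted columns and -0.011 without HET 48 h replicate 3. The other differences between genotypes at a single time ran from -0.25 (Map1a at 24 h) to 0.15 (Stmn1 at 12 h), and without HET 48 h replicate 3 those at 48 h ran from 0.02 to 0.10. With the missing directions as covariates, Stmn4 at 24 h was -0.41 (limma adjusted p 0.999, unadjusted p 0.00357) against -0.22.

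The smaller fall of Mapt in HET was tested as a difference of changes. From 12 to 48 h the difference was 0.36 (SE 0.18, 95% interval -0.02 to 0.75, limma adjusted p 0.563), and 0 of 9 members passed beside 0% of all genes, with 1534 genes and 0 members at an unadjusted p under 0.05. For the 24 to 48 h change, a comparison added after seeing the data, it was 0.47 (SE 0.18, 95% interval 0.08 to 0.85, limma adjusted p 0.237). With HET 48 h replicate 3 left out, these differences were 0.23 (limma adjusted p 0.801) and 0.33 (0.520). In both intervals the WT fall was the larger, and neither difference passed.

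The ratio of tau to MAP2 RNA brings these values together within each culture. It was computed after the values had been seen and is given as a description. Ratios of Map1b to Map1a, Stmn2 to Stmn4 and Stmn2 to Stmn3 were also computed. Map1b to Map1a was higher in HET without overlap at 12 h only, and both Stmn2 ratios overlapped between genotypes at every time. The ratio of Mapt to Map2 FPKM in WT was 3.81, 4.71 and 3.72 at 12 h, 3.18, 3.63 and 3.56 at 24 h, and 1.52, 1.46 and 2.10 at 48 h. In HET it was 5.22, 5.96 and 5.04 at 12 h, 3.54, 3.48 and 3.83 at 24 h, and 2.70, 2.47 and 5.04 at 48 h. The WT mean was 4.08 ± 0.55 at 12 h (SD, n = 3), and by 48 h it was 1.70 ± 0.36 (SD, n = 3), with no overlap between any 2 times. HET lay above WT without overlap at 12 and 48 h and overlapped it at 24 h. At 48 h the HET mean of 3.40 ± 1.42 (SD, n = 3) was widened by replicate 3, whose 5.04 equalled the HET ratio of 12 h replicate 5 to the printed digits.

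**Figure D4:**
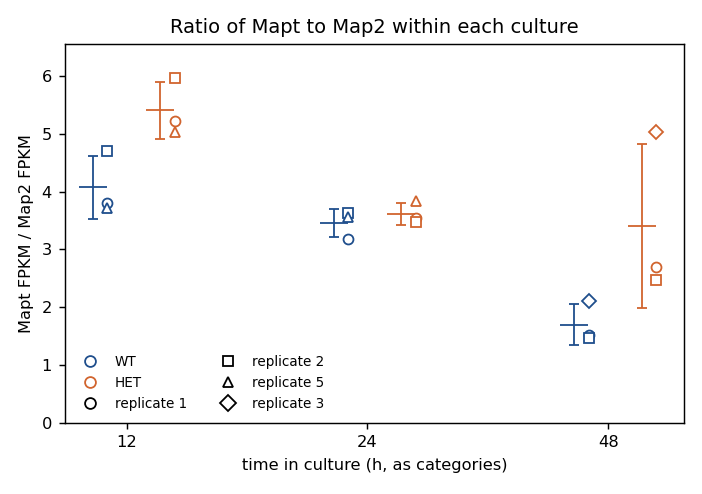
Ratio of Mapt to Map2 FPKM in each culture (y axis, linear from 0) against time in culture, WT in blue and HET in orange, with 1 symbol per culture and the group mean ± SD (n = 3). WT steps down to 1.70 at 48 h, and the HET culture at 5.04 (orange diamond, replicate 3) lies apart from its 2 group mates at 2.70 and 2.47.

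Other microtubule regulators were read from 6 lists of 46 genes, all measured. From 12 to 48 h in WT, 12 were called higher and 11 lower, beside 30.0% of all genes higher and 17.1% lower. Of the severing enzymes, which cut microtubules, 6 of 8 rose and 0 fell, with Fignl1 (log2 fold change 2.68), Fignl2 (1.49) and Katnal2 (1.03) the most changed. Their levels were low, at 0.205 to 2.76 FPKM for Fignl1, 0.407 to 2.10 for Fignl2 and 0.204 to 0.601 for Katnal2. The end-binding and plus-end protein genes, whose products track growing microtubule ends, had 4 of 7 lower and 0 higher, with Mapre3 at -0.82. Mapk10, a JNK kinase known to phosphorylate stathmins and MAPs, fell by 0.79 on the log2 scale, and Dpysl2 (CRMP2), which binds tubulin and promotes axon growth, by 0.69. Of the kinase list, which also holds the Cdk5 activator gene Cdk5r1, 4 of 11 rose and 2 fell. Of the doublecortin family and other microtubule-associated proteins, a list that includes Map1lc3a and Map1lc3b, 2 of 12 rose and 3 fell. Of the collapsin response mediator proteins 1 of 5 fell, and of the minus-end binding proteins 1 of 3.

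In HET from 12 to 48 h, 5 of the 46 were called higher and 2 lower, beside 14.2% of all genes called, and without HET 48 h replicate 3 it was 8 and 4, beside 28.4%. Of the severing enzymes 4 of 8 were called higher (5 without that culture), and of the plus-end proteins 0 of 7 were called (1 lower without it). Fignl1 (1.60), Fignl2 (0.94) and Katnal2 (0.81) led the rise again, and Mapk10 (-0.39) and Dpysl2 (-0.30) were the 2 that fell. From 12 to 24 h in WT, Mapk10 (-0.47) and Dpysl2 (-0.38) were lower and 0 were higher, beside 3.62% of all genes. From 12 to 24 h in HET, 3 were higher (Fignl2 1.21, Map7d1 0.58, Dpysl4 0.46) and 6 lower, led by Cdk5r1 (-0.78), Mapk10 (-0.60) and Clasp2 (-0.45), beside 18.9%. From 24 to 48 h in WT, 7 were higher, led by Fignl1 (2.36), Map7 (1.08) and Fignl2 (0.96), and 4 lower, led by Mapk10 (-0.31), Dpysl2 (-0.31) and Clip1 (-0.25), beside 27.7%. From 24 to 48 h in HET, Map7 (1.04) and Cdk5r1 (0.74) were higher and Dpysl4 (-0.57) lower, beside 2.49%, and without HET 48 h replicate 3 it was 6 higher and 5 lower, beside 14.9%. Of the 46 genes, 0 were called between genotypes at any time in limma.

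Over the 18 cultures, some members varied together. Map1a and Map1b had a Pearson r of 0.83, Map4 and Mapt 0.72, and Mapt and Stmn3 0.70. The lowest r was -0.58, between Map4 and Stmn1. These are descriptions over cultures that share groups and a common adjustment of the columns, and no test was made. Among 12477 genes with a mean of at least 100 normalized counts, the gene most like Mapt was Ptprn2 (r = 0.99), followed by Sap30l and Kcnip3 (both 0.98). Map1a was most like Iqsec1, Gm15800 and Nfic (0.97, 0.97 and 0.96) and Map1b most like Ntrk3, Kif1b and Prune2 (0.94, 0.94 and 0.93). Map2 was most like Rasgrf2, Neto1 and Rab11fip4 (0.91, 0.91 and 0.89), and Map4 most like Deptor, Il6st and Arhgap21 (0.96, 0.96 and 0.95). For the stathmins, the nearest genes were Serp2, Ppp2r2b and Enox1 for Stmn1 (0.96, 0.95 and 0.94), Slc25a4, Iscu and Dctn3 for Stmn3 (0.97, 0.96 and 0.96), and Pacs2 and B230219D22Rik for Stmn4 (both 0.93). Stmn2 had the weakest neighbours: Rnasek, 0610010K14Rik and Rnf5 (0.86, 0.86 and 0.84).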

How the data were processed

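RNA of 18 cultures, in 6 groups of genotype and time, had been sequenced, and the authors' deposited table holds 17198 genes. Per the submitters' processing notes, CASAVA 1.8.2, edgeR and the mm10 build were used; the aligner and the counting are not given in the sources used here. Per the file headers, the table holds an adjusted signal (normalized counts, whose columns sum to 41509705 to 41509874, and plain adjusted columns, summing to 39465712 to 44213485), FPKM, log2 fold changes and adjusted p-values from the authors' edgeR comparisons. It also holds the authors' rank score for each gene, which was not used, and their fold changes per replicate. The deposited adjusted values spanned 15 of 17 possible dimensions among samples, so 2 directions had been removed from them. The degrees of freedom of the main fit were not lowered for this.

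Because these values are not raw counts, limma 3.58.1 in R 4.3.3 was fitted to log2(normalized count + 1) of all genes, with 1 coefficient per group, empirical Bayes moderation along a trend (12 residual degrees of freedom and 5 from the prior), two-sided tests, and Benjamini-Hochberg adjustment over all 17198 genes at a threshold of 0.05. A fold change is on that log2(value + 1) scale. A minimum mean of 1 removed 0 genes. The fit was tested on simulated data. Levels between genes were compared in FPKM only. Named genes were the 9 members, Dynlrb1, for each comparison up to 3 called genes of largest change per direction among the 46 other regulators, and for each member the 3 genes most correlated over the 18 cultures, of which 1 is not reported here.

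The members and gene lists were chosen with earlier results of these data known. Same-numbered cultures were checked for shared deviations from their group means. All 3 pairs correlated above 0.1 for HET against WT at 12 h (0.32, 0.17 and 0.36) and 48 h (0.44, 0.48 and 0.54) and for HET 24 against 12 h (0.58, 0.28 and 0.38), and the numbers were taken to pair the cultures there. They did not for HET against WT at 24 h (0.15, -0.21 and 0.58) or WT 24 against 12 h (0.42, -0.08 and 0.24). Alternatives were a replicate block, other pseudocounts and filters, quantile normalization, FPKM, fits to the compared groups only, each culture left out in turn and, added once the data had been seen, use of the plain adjusted columns, the missing directions as covariates and fits without HET 48 h replicate 3 (with the block, and for all lists).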

Additional observations from a re-analysis of the deposited data

How the results depend on the processing

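With the replicate number as a block, limma's count of members past the threshold went from 0 to 2 for HET against WT at 48 h (1 higher, 1 lower) and from 0 to 1 averaged over times, and without HET 48 h replicate 3 as well it was 1 and 1; the block changed no other call in a comparison whose numbers pair. Where the numbers do not pair the cultures, the block gave 2 members from 12 to 24 h in WT (Mapt joined, adjusted p 0.0124) beside 9.43% of all genes, 3 from 24 to 48 h in HET beside 16.8% (Mapt, 0.00529, and Stmn1, 0.0434, joined), and a Mapt genotype difference of the 24 to 48 h change at an adjusted p of 0.0354. It also ended the calls of Map4 from 24 to 48 h (0.0616) and Map1b from 12 to 48 h (0.107) in WT, and gave calls of Map2 in both (0.00862 and 0.0269), so that these counts stayed at 4 and 5 with Map2 in place of the lost gene. For changes with time, 48 h replicate 3 of each genotype was alone in its block. The block absorbed it, so blocked changes to 48 h rested on 48 h replicates 1 and 2 only. The HET change of Mapt from 24 to 48 h was -0.17 without the block and -0.41 with it. Fits to the compared groups only gave 0 members from 24 to 48 h and 0 from 12 to 48 h in HET. With 1 culture left out, the counts ran from 0 to 0 for 12 to 24 h in WT, 1 to 3 for 24 to 48 h in WT, 2 to 5 for 12 to 48 h in WT, 1 to 2 for 12 to 24 h in HET, 0 to 1 for both other HET intervals and for genotype at 48 h, and 0 to 0 for the other genotype comparisons. Of 99 values of a member in a comparison, 37 changed sign under at least 1 alternative, and 0 of these sign changes involved a value past the threshold. Among the values given singly with their alternatives, Stmn2 did so: averaged over times its log2 fold change ran from -0.045 to 0.039 with 1 culture left out (0.00057 or above in 9 such fits) and was 0.012 on the plain columns, and from 12 to 48 h in WT it ran from -0.22 to 0.031 (without WT 12 h replicate 2); the cause was not tested. DESeq2 was not run, since the values are not counts, and no filter gave the same genes as the filter used. Depth is unknown, so no limit from it can be given.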
